A study of Mus musculus with 12 samples.

Results

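The genes described here encode the subunits of RNA polymerase I (Pol I), RNA polymerase II (Pol II) and RNA polymerase III (Pol III), the enzymes that transcribe the nuclear genome, together with the mitochondrial RNA polymerase Polrmt. They were taken as the protein_coding genes whose GENCODE M21 symbol starts with Polr1, Polr2 or Polr3 followed by a letter, or is Polrmt, which gave 29 of the 55536 features in the deposited table and of its 22028 protein_coding genes. Expression values of the study played no part in this rule. Of these, 28 are described. By enzyme, 3 of the 28 belong to Pol I alone (Polr1a, Polr1b and Polr1e), 2 are shared by Pol I and Pol III (Polr1c and Polr1d), 5 are shared by the 3 nuclear enzymes (Polr2e, Polr2f, Polr2h, Polr2k and Polr2l), 8 belong to Pol II, 9 belong to Pol III, and 1 is Polrmt. The other 4 Pol I and Pol III subunits carry unrelated symbols in this annotation (Twistnb, Cd3eap, Znrd1 and Crcp) and were counted apart.

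RNA was sequenced from cultured splenic B cells of C57BL/6 mice, 3 control mice, heterozygous for a B lineage Cre allele, and 3 Pdap1-deficient mice, Pdap1F/F with the same Cre allele, so that both genotypes carried Cre. In the deficient mice, LoxP sites flank exon 2 of Pdap1 and Cre deletes the exon in cells of the B lineage. B cells of each mouse, isolated by removing CD43-positive cells, were cultured for 48 h in each of 2 stimulations. These were LPS plus IL-4 (LPS-IL-4, for class switching to IgG1) and LPS plus BAFF and TGFβ (LPS-BAFF-TGFb, for IgG2b). This gave 12 libraries in 4 groups of 3, and the same 3 mice of a genotype were used in both stimulations. The labels gave no age or sex for a mouse, and they named the CH12 cell line and a stranded mRNA kit, whereas the study's methods describe primary splenic B cells and total RNA with ribosomal RNA removed.

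Pol I transcribes the ribosomal RNA precursor in the nucleolus, Pol II transcribes messenger RNAs and many noncoding RNAs, and Pol III transcribes transfer RNAs, 5S ribosomal RNA and other short RNAs. The enzymes are built on the same plan: a pair of large subunits forms the active site, a heterodimer of smaller subunits nucleates assembly, 5 small subunits are common to all, and a stalk and peripheral subunits are particular to each. B cells that respond to LPS enlarge and divide within days, and demand for ribosomes and transfer RNA is high in such cells. In eukaryotes Polrmt is a single-chain enzyme related to phage polymerases, and it transcribes mitochondrial DNA.

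Total counts were between 4579793 and 69500640 per library, and the LPS-BAFF-TGFb library of control mouse 1 was the deepest, with the other 11 between 4579793 and 15869143. Pdap1, counted over its whole length, was at 80.3 to 199 CPM (counts relative to the library total, scaled by TMM factors over the 12 libraries) in the 6 control libraries and at 23.0 to 29.9 CPM in the 6 Pdap1-deficient ones, so every library matched its genotype label. B cell markers (8 genes) summed to 3698 to 5501 CPM in every library. Myeloid markers (7 genes, Lyz2, Csf1r, Itgam, Cd14, Adgre1, S100a8 and S100a9) summed to 5.22 to 24.8 CPM in control libraries, to 6.77 and 11.8 in those of Pdap1-deficient mouse 1, to 33.7 and 79.0 in those of mouse 3, and to 316.5 and 549.8 in those of mouse 2, in LPS-IL-4 and LPS-BAFF-TGFb respectively. T cell markers summed to at most 36.4 CPM, natural killer cell markers to at most 4.44 CPM and erythroid markers to at most 23.6 CPM, while plasma cell markers, some of which activated B cells also express, summed to 449.5 to 891.9 CPM. In bulk RNA, fewer cells of a type and less RNA per cell cannot be told apart.

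All 28 subunit genes described passed the filter on low counts in every comparison. Together they took 0.231% to 0.232% of the counts in the LPS-IL-4 control libraries and 0.198% to 0.209% in the LPS-IL-4 Pdap1-deficient ones. The corresponding shares with LPS-BAFF-TGFb were 0.210% to 0.215% in control and 0.181% to 0.199% in Pdap1-deficient libraries. These shares did not overlap between genotypes in either stimulation. In the library with the lowest share, that of LPS-BAFF-TGFb Pdap1-deficient mouse 1, a single feature took 9.90% of all counts, against at most 3.38% in the others.

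Levels were compared between genes as CPM per kilobase of exon. In the LPS-IL-4 control libraries the level was highest for Polr2g, which forms the Pol II stalk with Polr2d, at 70.0 ± 1.66 CPM per kilobase (SD, n = 3), and next for Polr2b, the partner of Polr2a in the Pol II active site, at 67.5 ± 1.27. The ranges of these 2 genes over the mice overlapped, and both lay above the range of the next gene, Polr2m, which encodes a substoichiometric Pol II subunit, at 48.0 ± 1.92. The catalytic subunit Polr2a was far below its partner, at 21.1 ± 0.506 CPM per kilobase. Of the 27 pairs of neighbours in this order, 16 had overlapping ranges. The lowest levels were those of the small shared subunits Polr2l (3.87 ± 0.446 CPM per kilobase) and Polr2k (3.51 ± 0.455) and of Polr3gl (1.73 ± 0.293), and Polr3gl lay below every other gene of the set. An exon length merged over all annotated transcripts was used, which lowers the level of genes with long unused exons.

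The subunits varied little among LPS-IL-4 control mice, with a coefficient of variation between 1.88% and 20.7% and a median of 5.60% over the 28 genes. The median was 12.3% in LPS-IL-4 Pdap1-deficient mice, 16.4% in LPS-BAFF-TGFb control mice, and in LPS-BAFF-TGFb Pdap1-deficient mice the values ran from 2.85% to 40.9%. The most variable genes were Polr2l at 85.3% and Polr2j at 63.7%, both in LPS-BAFF-TGFb control mice, and Polr2a at 56.7% in LPS-IL-4 Pdap1-deficient mice.

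**Figure D1:**
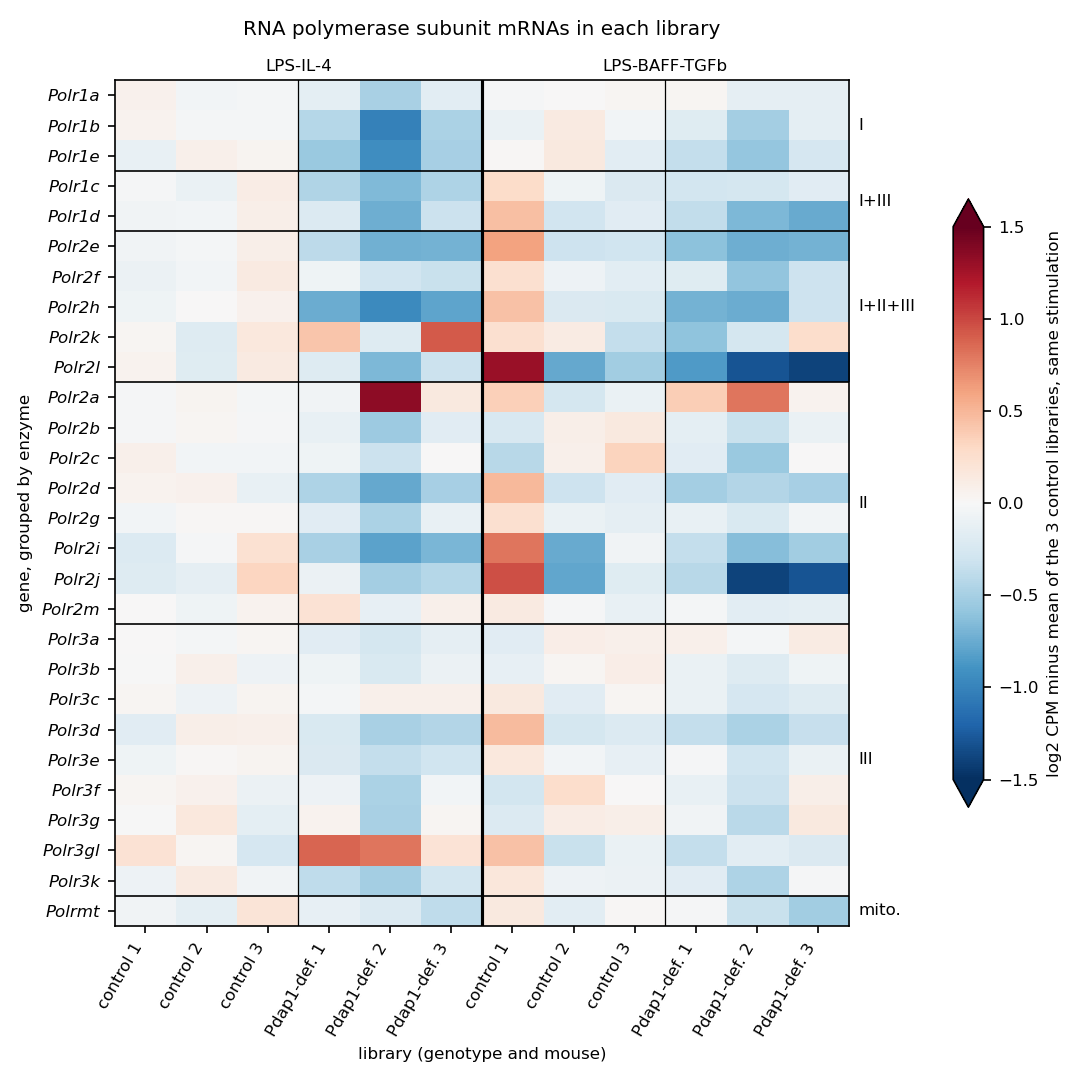
Log2 CPM (prior count 2) of the 28 subunit genes in each of the 12 libraries, minus the mean of the 3 control libraries of the same stimulation; rows are genes grouped by enzyme (I, I+III, I+II+III, II, III, mitochondrial), columns are libraries, blue is lower and red is higher. Most cells of the 6 Pdap1-deficient columns are blue, deepest in mouse 2 with LPS-IL-4 (median -0.48), and the LPS-BAFF-TGFb control mouse 1 column is mostly red (median 0.20).

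The first comparison asked how loss of Pdap1 changed the subunits in B cells cultured with LPS-IL-4. Of the 28 genes, 6 passed the test, all 6 lower in the Pdap1-deficient mice (edgeR's quasi-likelihood test, Benjamini-Hochberg adjusted p under 0.05). Of the 15074 genes tested, 4.92% passed in either direction and 2.12% in the lower direction. The 6 were Polr1b and Polr1e of Pol I, Polr1c of Pol I and Pol III, Polr2e and Polr2h of all 3 enzymes, and Polr2d of Pol II. The calls do not set Pol II apart from Pol III. The median log2 fold change was -0.26 over the 8 Pol II subunits, of which 1 passed, and -0.19 over the 9 Pol III subunits, of which none passed. The fitted log2 fold change was below 0 for 23 of the 28 genes and above 0 for 5, with a median of -0.27, beside 47.3% of all genes below 0, 52.7% above 0 and a median over all genes of 0.02. The 3 control and 3 deficient values did not overlap for 16 of the 28 genes, all 16 lower in the deficient mice, while 16.1% of all genes did so in that direction and 15.1% in the other. Before adjustment, 12 of the 28 genes had an edgeR p under 0.05, 11 lower and 1 higher, beside 23.8% of all genes.

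**Figure D2:**
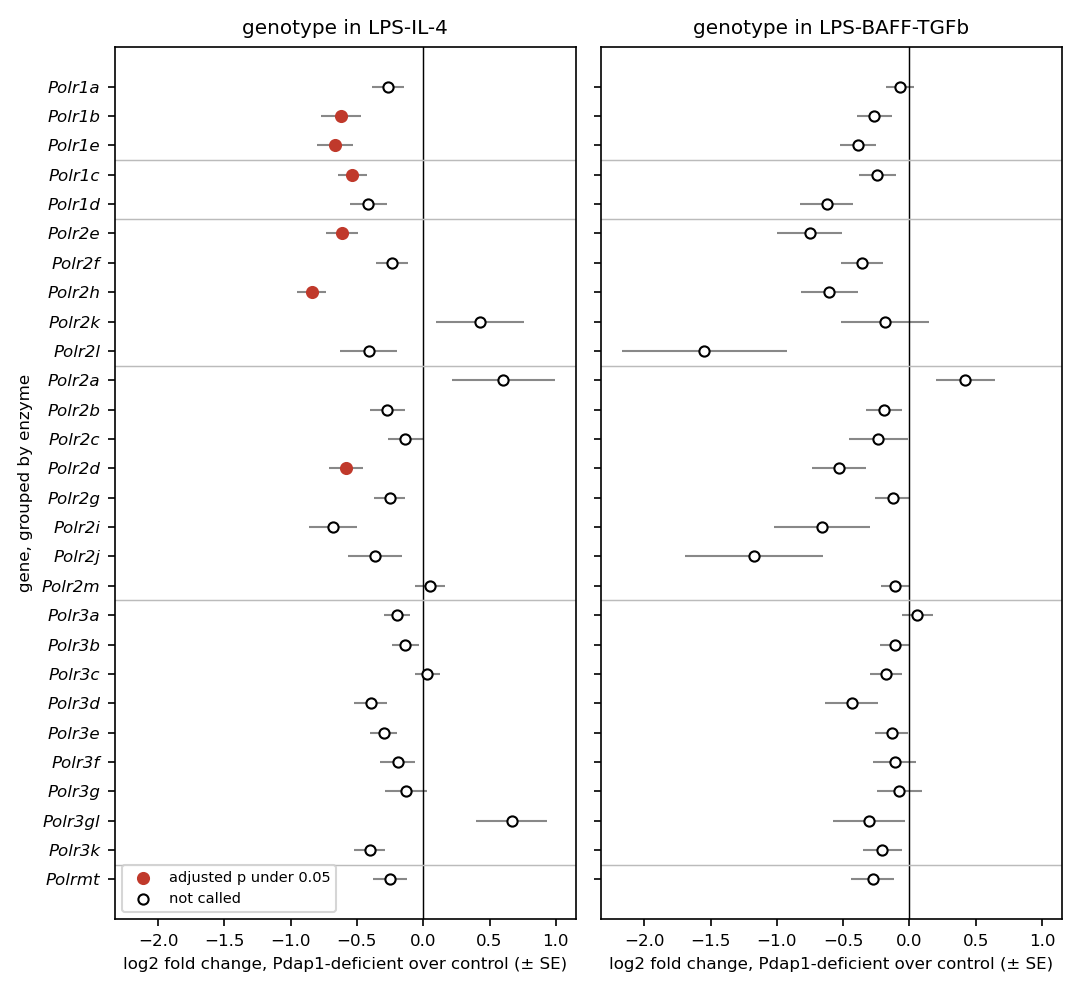
Log2 fold change of each subunit gene, Pdap1-deficient over control, with its standard error (bars), in LPS-IL-4 (left) and LPS-BAFF-TGFb (right), 3 mice per genotype; rows are genes grouped by enzyme, and filled red points passed an adjusted p of 0.05. The 6 filled points are all in LPS-IL-4 and all below 0, and in LPS-BAFF-TGFb no point is filled although 26 of 28 lie below 0.

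Among the subunits common to the 3 enzymes, Polr2h fell most. It was at 42.1, 44.1 and 46.1 CPM in control mice 1 to 3 and at 26.2, 22.7 and 25.4 CPM in Pdap1-deficient mice 1 to 3, with a wide gap between the groups. Its log2 fold change was -0.84 (SE 0.11, adjusted p = 0.0036 in edgeR's quasi-likelihood test), and it kept its call under each of the 14 alternative settings (adjusted p between 4.15e-07 and 0.0436). Polr2e, a subunit near the downstream DNA, was at 55.9, 56.6 and 61.6 CPM in the control mice and at 44.0, 35.2 and 35.4 CPM in the deficient mice. No deficient mouse reached a control value, and the log2 fold change was -0.61 (SE 0.12, adjusted p = 0.0228, edgeR). The other common subunits did not pass, with log2 fold changes of -0.23 for Polr2f, -0.41 for Polr2l and 0.43 for Polr2k, which is at only 1.89 to 4.23 CPM over the 12 libraries.

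Of the 3 subunits of Pol I alone, Polr1e and Polr1b fell. Polr1e, a peripheral subunit that joins Cd3eap in a heterodimer needed for initiation, was at 58.2, 66.3 and 64.7 CPM in control mice 1 to 3 and at 42.7, 32.9 and 44.6 CPM in the deficient mice. These groups did not overlap, and the log2 fold change was -0.66 (SE 0.14, adjusted p = 0.0259, edgeR). Polr1b, which completes the Pol I active site with Polr1a, was at 229.8, 217.5 and 217.2 CPM in the control mice and at 164.9, 109.6 and 159.1 CPM in the deficient mice, where mouse 2 was lowest. Its log2 fold change was -0.62 (SE 0.15, adjusted p = 0.0444, edgeR), and it did not pass once fitted offsets removed trends with gene length and GC content (adjusted p = 0.0690). The largest subunit, Polr1a, was at 303.0 to 328.1 CPM in control and 223.1 to 282.6 CPM in deficient mice, a difference that did not pass (log2 fold change -0.27, adjusted p = 0.21, edgeR) although the groups did not overlap.

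Polr1c and Polr1d form the assembly heterodimer of Pol I and Pol III. Polr1c was at 76.1, 71.9 and 83.4 CPM in control mice 1 to 3 and at 56.1, 48.6 and 55.8 CPM in Pdap1-deficient mice, with no overlap (log2 fold change -0.54, SE 0.11, adjusted p = 0.0267, edgeR). Polr1d also had no overlap, at 104.1 to 114.8 CPM against 64.7 to 93.3 CPM, but did not pass (log2 fold change -0.41, SE 0.14, adjusted p = 0.11, edgeR).

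Of the 8 Pol II subunits, Polr2d alone passed. It was at 41.5, 41.7 and 36.9 CPM in control mice 1 to 3 and at 29.02, 23.5 and 28.3 CPM in the deficient mice, which did not overlap (log2 fold change -0.58, SE 0.13, adjusted p = 0.0300, edgeR). Its stalk partner Polr2g, at 84.9 to 88.7 CPM against 62.9 to 80.5 CPM, did not pass (log2 fold change -0.25, adjusted p = 0.22). The largest Pol II difference was that of Polr2i, which takes part in transcript cleavage and proofreading, at 9.80, 11.2 and 13.2 CPM in the control mice and at 8.01, 6.45 and 6.98 CPM in the deficient mice. It did not pass (log2 fold change -0.68, SE 0.18, adjusted p = 0.0581, edgeR), passed by DESeq2 (adjusted p = 0.0482), and shares 26.8% of its exon length with Tbcb on the opposite strand, so that reads of the 2 genes cannot be told apart where the strand setting of the counting is unknown. The same holds for shorter stretches of Polr2c (18.1%, with Dok4), Polr2j (15.9%, with Lrwd1), Polr2f (9.44%), Polr2h (5.43%), Polr3b (4.69%), Polr3gl (3.57%), Polr2b (1.82%) and Polr1a (1.56%).

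Polr2a, which carries the Pol II active site and the C-terminal repeat domain, did not follow its partners; it was chosen for description after its values were seen. It was at 147.3, 153.1 and 146.5 CPM in control mice and at 143.7, 378.5 and 165.1 CPM in Pdap1-deficient mice 1 to 3. A single library, that of mouse 2, stood above the rest, and mouse 1 lay below every control mouse (log2 fold change 0.60, SE 0.39, adjusted p = 0.41, edgeR; 0.06 without mouse 2). The ratio of Polr2a to Polr2b per kilobase was 0.311 to 0.314 in the 3 control libraries, 0.325 and 0.390 in deficient mice 1 and 3, and 1.15 in mouse 2. In LPS-BAFF-TGFb, mouse 2 again had the highest ratio, 0.769, against 0.275 to 0.528 in the other 5 libraries. These are the 2 libraries with the highest myeloid marker sums, and the part of those cells in the ratio was not tested.

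None of the 9 Pol III subunits described passed. The heterodimer Polr3d and Polr3e, which acts in initiation and termination, had values of -0.39 (adjusted p = 0.0907) and -0.30 (adjusted p = 0.10), and both had no overlap between genotypes. The catalytic pair Polr3a and Polr3b had values of -0.20 and -0.14, and the termination subunit Polr3k had -0.40 (adjusted p = 0.0734). Polr3a, at 102.5 to 106.7 against 87.0 to 95.6 CPM, and Polr3k, at 40.3 to 46.7 against 29.9 to 35.1 CPM, also had no overlap. In all, 4 of the 9 genes did not overlap and were lower in the deficient mice, beside 16.1% of all genes. The remaining members of the initiation trimer, Polr3c, Polr3f and Polr3g, lay between -0.19 and 0.03.

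Polrmt was at 31.7, 29.9 and 37.8 CPM in control mice 1 to 3 and at 30.2, 28.5 and 25.3 CPM in the Pdap1-deficient mice, so that the groups overlapped. Its log2 fold change of -0.25 (SE 0.13) did not pass (adjusted p = 0.26, edgeR).

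**Figure D3:**
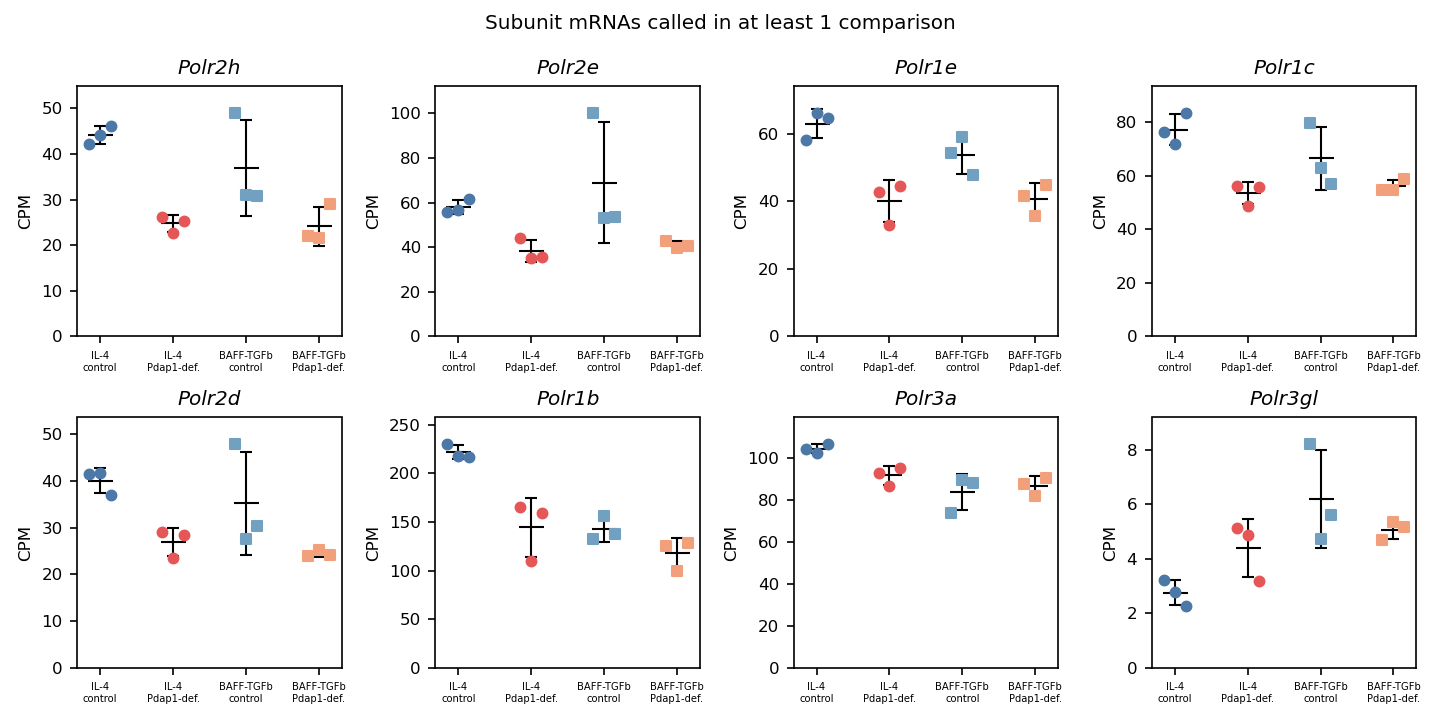
CPM in each library for the 8 subunit genes that passed in at least 1 comparison; points are mice 1 to 3 from left to right within a group, horizontal bars are group means and error bars are SD (n = 3), on axes from 0. In LPS-IL-4 the Pdap1-deficient points lie below all control points in every panel but Polr3gl, and in LPS-BAFF-TGFb control mouse 1 is the highest library for Polr2h (49.0 CPM), Polr2e (100.2 CPM) and Polr3gl (8.20 CPM).

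Within genotypes, the decrease was uneven between mice. In LPS-IL-4, Pdap1-deficient mouse 1 was below every control mouse for 18 of the 28 genes, mouse 2 for 25 and mouse 3 for 20, where 30.4%, 37.7% and 34.7% of all genes were. The mice were above every control mouse for 3, 2 and 4 of the subunit genes, where 31.4%, 39.9% and 35.1% of all genes were. The median over the 28 genes of the log2 difference from the control mean was -0.16 in mouse 1, -0.48 in mouse 2 and -0.29 in mouse 3, an order that the myeloid marker sums of 6.77, 316.5 and 33.7 CPM share. Mouse 1, with a myeloid sum within the control range, had the smallest difference, and the part of myeloid cells in these differences was not tested. Without mouse 2, the same 6 genes passed and the median log2 fold change was -0.21.

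The number of calls depended on single mice. Leaving out control mouse 1, 2 or 3, or Pdap1-deficient mouse 3, left 1 call each, Polr2h in every case, while leaving out Pdap1-deficient mouse 1 gave 9. With those mice out, the calls over all genes fell to 0.585%, 0.44%, 0.505% and 1.05%, and without deficient mouse 1 they were 11.4%. The number was 7 by DESeq2 and 4 in 1 fit of all 12 libraries, where Polr2d (adjusted p = 0.0871) and Polr2e (adjusted p = 0.12) did not pass.

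**Figure D4:**
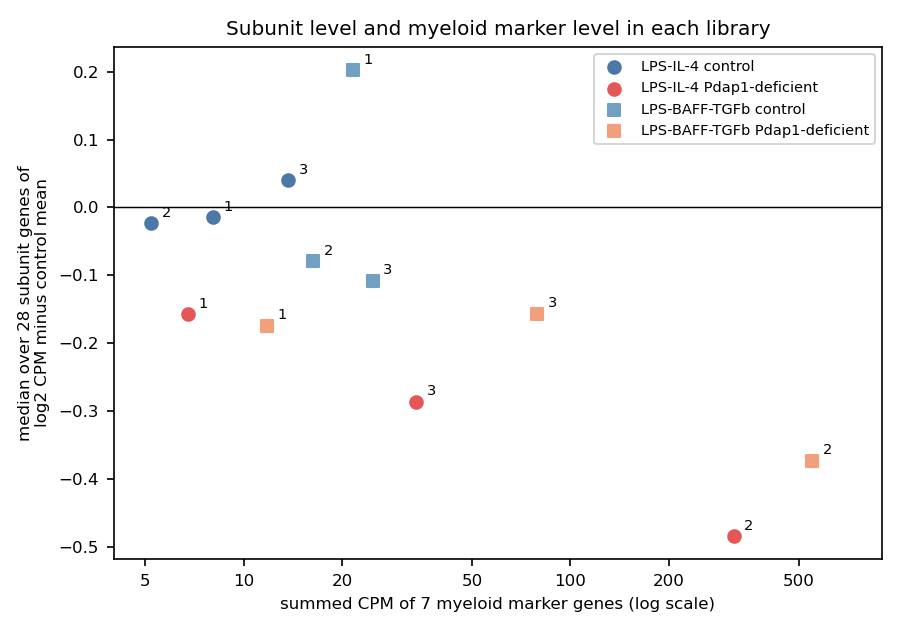
Median over the 28 subunit genes of log2 CPM minus the control mean of the same stimulation (vertical axis) against the summed CPM of 7 myeloid marker genes (horizontal axis, log scale), 1 point per library, numbered by mouse and coloured by group. Pdap1-deficient mouse 2 lies lowest in each stimulation (-0.48 and -0.37) with the highest marker sums (316.5 and 549.8 CPM), and mouse 1 lies below 0 (-0.16 and -0.17) with sums at or below 11.8 CPM. Mouse 3 lies at -0.29 and -0.16 with sums of 33.7 and 79.0 CPM.

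The same question was asked of cells cultured with LPS-BAFF-TGFb. No subunit gene passed, by edgeR or by DESeq2, in a comparison where 65 of 14079 genes did (0.462%, and 0.0071% in the lower direction). The deleted gene Pdap1 did not pass here either (log2 fold change -2.33, SE 0.36, adjusted p = 0.0929, edgeR). The lack of calls is therefore weak evidence that the subunits were unchanged. Before adjustment, 7 of the 28 genes had an edgeR p under 0.05, all lower (Polr1d, Polr1e, Polr2d, Polr2e, Polr2f, Polr2h and Polr2l), beside 5.28% of all genes lower and 5.27% higher. The fitted log2 fold change was below 0 for 26 of the 28 genes, with a median of -0.24, against 49.1% of all genes below 0, 50.9% above 0 and a median of 0.01. Values did not overlap between genotypes for 9 genes, all lower in the deficient mice (8.88% of all genes, with 9.97% higher), and 8 of these 9 also did not overlap in LPS-IL-4: Polr1b, Polr1d, Polr1e, Polr2d, Polr2e, Polr2h, Polr2l and Polr3d. Of the 13793 genes tested in both stimulations, 4.84% did not overlap and were lower in both.

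Polr2h was at 49.0, 30.9 and 30.7 CPM in control mice 1 to 3 and at 21.9, 21.5 and 29.1 CPM in Pdap1-deficient mice 1 to 3 (log2 fold change -0.60, SE 0.21, adjusted p = 0.39, edgeR). Polr2e was at 100.2, 53.3 and 53.5 CPM in control mice and at 42.9, 39.4 and 40.3 CPM in deficient mice (log2 fold change -0.75, SE 0.24, adjusted p = 0.36, edgeR). For both genes control mouse 1 was far above the other control mice. Polr1e, at 54.3, 59.1 and 48.0 CPM against 41.8, 35.7 and 44.9 CPM, had no such library (log2 fold change -0.39, SE 0.14, adjusted p = 0.38, edgeR). Polr1c, which passed in LPS-IL-4, overlapped here, at 56.7 to 79.7 against 54.5 to 58.6 CPM.

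Part of these differences rested on the deepest library. In control mouse 1, 19 of the 28 genes were above both other control mice, as were 42.5% of 15794 genes. It exceeded their mean for all 8 genes with an exon length under 2000 bases, by a median of 1.62-fold and up to 3.9-fold, and for 3 of the 10 genes of 4000 bases or more, with a median of 0.891-fold. Over the 28 genes the log2 ratio had a Spearman correlation of -0.726 with exon length and of 0.455 with GC content, given as a description, since the genes share these libraries. The length classes and these correlations were not computed over all genes, so they are not read as particular to the subunits. Polr2l, a zinc-binding shared subunit, was at 21.8 CPM in mouse 1 against 5.11 and 6.09 CPM, and Polr2j, which pairs with Polr2c in Pol II assembly, at 35.4 against 10.5 and 16.0 CPM; both were named after their values were seen. Over the 12 libraries Lrwd1, on the opposite strand of Polr2j, had 11047 counts against 3331 for Polr2j. Without this library the log2 fold change by genotype moved from -1.55 to -0.53 for Polr2l, from -1.18 to -0.52 for Polr2j, from -0.75 to -0.38 for Polr2e and from -0.63 to -0.37 for Polr1d. It moved likewise from -0.60 to -0.34 for Polr2h, from -0.53 to -0.25 for Polr2d, from -0.66 to -0.14 for Polr2i and from -0.24 to -0.09 for Polr1c. The median over the subunits was then -0.18, with 27 of 28 genes below 0, and it was -0.13 with 23 below 0 when Pdap1-deficient mouse 2 was left out as well. No subunit gene passed under either choice. The share of all genes below 0 was not computed for these fits.

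**Figure D5:**
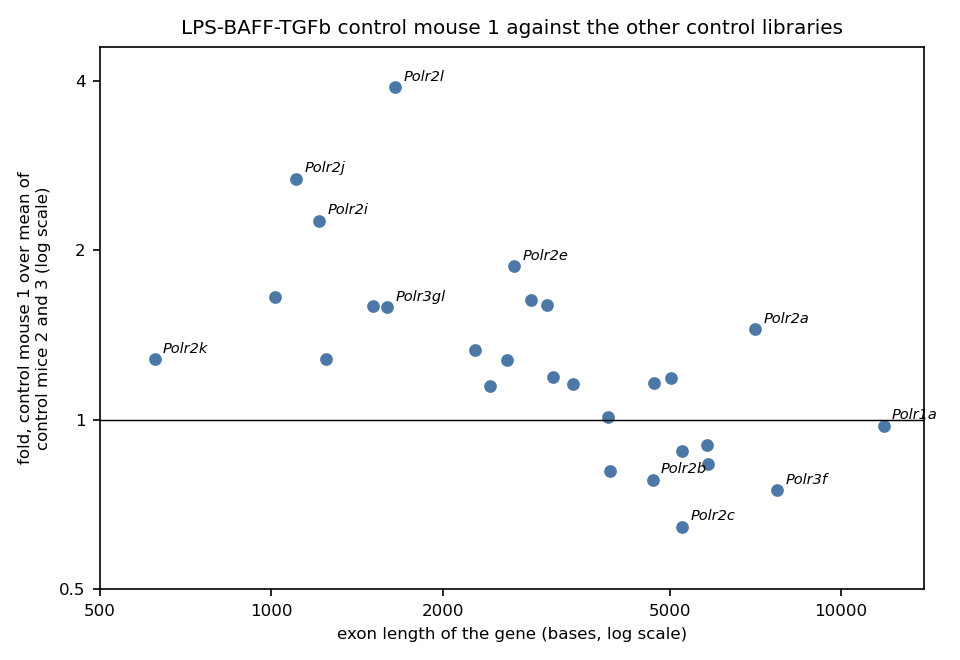
Ratio of CPM in the deepest library, LPS-BAFF-TGFb control mouse 1, to the mean of control mice 2 and 3 (vertical axis, log scale) against exon length in bases (horizontal axis, log scale), 1 point per subunit gene. All 8 genes under 2000 bases lie above 1, led by Polr2l at 3.9-fold, and 7 of the 10 genes of 4000 bases or more lie below 1.

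Polr2a was again high in Pdap1-deficient mouse 2, at 295.7 CPM, with mice 1 and 3 at 219.3 and 176.2 CPM and controls at 218.0, 142.1 and 158.5 CPM (log2 fold change 0.42, SE 0.22, adjusted p = 0.53, edgeR; 0.18 without mouse 2). Mice 1, 2 and 3 of the deficient genotype were below every control mouse for 13, 23 and 14 of the 28 genes, where 23.4%, 27.3% and 27.1% of all genes were, and above every control mouse for 2, 1 and 3, where 25.2%, 30.7% and 27.5% were. Their medians were -0.17, -0.37 and -0.16, beside myeloid marker sums of 11.8, 549.8 and 79.0 CPM. The order seen in LPS-IL-4 did not hold for mice 1 and 3, since mouse 1 had the lower sum and a slightly larger difference.

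Whether the genotype difference depended on the stimulation was tested as an interaction over the 12 libraries. No gene passed among all 15794 by edgeR (0%), and no subunit gene passed by edgeR or DESeq2, which called 6 genes in all. At an unadjusted p under 0.05 there was 1 subunit gene, Polr3gl, with a negative interaction, beside 4.78% of all genes, 3.17% negative and 1.61% positive. The fitted interaction was below 0 for 14 of the 28 genes and above 0 for 14, beside 55.7% and 44.3% of all genes. A call in LPS-IL-4 and none in LPS-BAFF-TGFb therefore did not amount to a difference between stimulations. The interaction for Polr2h was 0.22 (SE 0.25, adjusted p = 0.99), and for the 3 Pol I subunits it was between 0.18 and 0.34.

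Polr3g and Polr3gl encode alternative forms of 1 Pol III subunit, of which an enzyme holds 1 or the other. The sequences upstream of their transcription starts are printed because the ratio of this pair is described next. Each runs 5′ to 3′ on the minus strand over the 250 bases before the start in RefSeq (GRCm38.p6), chr13:81711014-81711263 for Polr3g and chr3:96594182-96594431 for Polr3gl, and capitals mark matches to the 7 motifs named below.
Polr3g: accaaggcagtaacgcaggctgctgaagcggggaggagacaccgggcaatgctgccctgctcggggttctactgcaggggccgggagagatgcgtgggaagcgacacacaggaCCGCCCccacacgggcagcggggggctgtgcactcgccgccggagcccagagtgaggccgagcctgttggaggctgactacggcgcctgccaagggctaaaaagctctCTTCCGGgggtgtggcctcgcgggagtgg
Polr3gl: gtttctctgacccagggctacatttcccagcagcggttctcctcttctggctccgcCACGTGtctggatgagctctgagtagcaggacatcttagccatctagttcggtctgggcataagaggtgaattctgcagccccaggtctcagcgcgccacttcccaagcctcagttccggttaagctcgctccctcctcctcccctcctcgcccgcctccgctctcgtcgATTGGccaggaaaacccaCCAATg
The Polr3g stretch held 1 GC box (GGGCGG) and 1 Ets site (CCGGAAG), both read on the opposite strand, and the Polr3gl stretch held 1 E-box (CACGTG) and 2 CCAAT boxes, 1 on each strand. Neither held the TATA box TATAAA, the Atf4 site TGATGNAA or the Nrf1 site.

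RefSeq upstream stretches were at hand for 23 of the 28 genes, and both strands were searched. An Ets site was in 6 of 23 (26.1%, beside 7.83% of 27025 genes): Polr1c, Polr2f, Polr2j, Polr3b, Polr3g and Polrmt. A GC box was in 14 of 23 (60.9%, beside 35.4%), a CCAAT box in 7 (30.4%, beside 37.5%), a TATA box in 3 (13%, beside 14.3%), an E-box in 2 (8.7%, beside 6.86%), an Atf4 site in 1 (4.35%, beside 3.91%) and an Nrf1 site in 0 (0%, beside 0.877%). These matches are a description of the letters in these windows.

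Polr3gl was at 3.21, 2.79 and 2.28 CPM in LPS-IL-4 control mice and at 5.13, 4.86 and 3.17 CPM in LPS-IL-4 Pdap1-deficient mice. Deficient mice 1 and 2 were above every control mouse and mouse 3 was not, and the difference did not pass (log2 fold change 0.67, SE 0.27, adjusted p = 0.16, edgeR). With LPS-BAFF-TGFb it was at 8.20, 4.74 and 5.60 CPM in control and at 4.68, 5.37 and 5.16 CPM in deficient mice, which overlapped. The interaction was -0.99 (SE 0.38, unadjusted p = 0.0202, adjusted p = 0.98, edgeR) and lay between -1.18 and -0.43 under the alternatives, at -0.43 with libraries thinned to the smallest total and at -0.71 without the deepest library.

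Per kilobase, Polr3g exceeded Polr3gl in every library. The ratio of Polr3g to Polr3gl was 4.34, 5.56 and 5.51 in LPS-IL-4 control mice 1 to 3 and 2.81, 2.04 and 4.50 in LPS-IL-4 Pdap1-deficient mice. It was 1.62, 3.46 and 2.90 in LPS-BAFF-TGFb control mice and 3.15, 2.14 and 3.27 in LPS-BAFF-TGFb Pdap1-deficient mice. Among control mice the ratio was thus lower with LPS-BAFF-TGFb in each mouse. The lowest of these ratios, 1.62, is that of the deepest library. There Polr3gl was 1.59-fold and Polr3g 0.811-fold the mean of the other LPS-BAFF-TGFb control mice. The ratio also rests on the low counts of Polr3gl. Polr3g itself was at 30.9 to 38.2 CPM in LPS-IL-4 and 32.7 to 40.5 CPM in LPS-BAFF-TGFb control mice, with no call in any comparison.

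The stimulations were compared within a genotype as LPS-BAFF-TGFb minus LPS-IL-4. In control mice 3 of the 28 subunit genes passed, beside 18.2% of the 15794 genes tested: Polr3gl rose, and Polr1b and Polr3a fell (lower direction 8.22% of all genes, higher 9.93%). The 3 calls are 2 of Pol III and 1 of Pol I, and the median log2 fold change over the subunits was -0.05, beside 0.03 over all genes, with 17 of 28 below 0 (46.7% of all genes). Before adjustment, 5 had an edgeR p under 0.05, 3 lower and 2 higher, beside 30.3% of all genes. Polr3gl rose by 1.19 on the log2 scale (SE 0.27, adjusted p = 0.0062, edgeR's quasi-likelihood test), with every LPS-BAFF-TGFb value above every LPS-IL-4 value.

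Polr1b was at 217.2 to 229.8 CPM in LPS-IL-4 and at 132.7, 156.3 and 137.8 CPM in LPS-BAFF-TGFb control mice 1 to 3 (log2 fold change -0.64, SE 0.15, adjusted p = 0.0070, edgeR). Its level in LPS-BAFF-TGFb control mice overlapped that in LPS-IL-4 Pdap1-deficient mice, 109.6 to 164.9 CPM. The catalytic subunit Polr3a was at 104.6, 102.5 and 106.7 CPM in LPS-IL-4 and at 74.1, 89.5 and 88.2 CPM in LPS-BAFF-TGFb (log2 fold change -0.32, SE 0.10, adjusted p = 0.0339, edgeR), lowest in the deepest library. Polr3a lost its call without that library (adjusted p = 0.0941) and under 8 of its 12 alternatives in all (adjusted p between 0.0206 and 0.171), and Polr3gl lost its call when libraries were thinned to the smallest total (log2 fold change 0.66, adjusted p = 0.20).

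With the mouse as a block, 4 subunit genes passed in control mice, the 3 above and Polr2g (log2 fold change -0.36, adjusted p = 0.0342). Without the deepest library 7 passed, namely Polr1b, Polr1c, Polr2d, Polr2g, Polr2h and Polr3d lower and Polr3gl higher. With all cultures of control mouse 1, 2 or 3 left out the number was 4, 2 and 0. These counts are not set beside the share of all genes that passed in the same fits. They show how the calls moved and are not read as a result about the subunits.

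In Pdap1-deficient mice no subunit gene passed by edgeR or DESeq2, where 13.6% of all genes did, and none had an edgeR p under 0.05 before adjustment, where 24.4% did. The median log2 fold change over the subunits was -0.03, beside -0.0040 over all genes. Polr1b was at 164.9, 109.6 and 159.1 CPM in LPS-IL-4 and at 125.5, 99.3 and 128.1 CPM in LPS-BAFF-TGFb, lower in each of the 3 mice (log2 fold change -0.29, SE 0.15, adjusted p = 0.24, edgeR). Without mouse 2 it passed (adjusted p = 0.0403), the only call among the subunits. Polr3gl had a log2 fold change of 0.20 (SE 0.27, adjusted p = 0.75). The groups of this comparison and of the genotype comparisons share libraries.

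Genes that work with the polymerases were counted from lists written from general knowledge. In LPS-IL-4, 1 of the 4 Pol I and Pol III subunits under other symbols fell, Cd3eap, the partner of Polr1e, which was at 39.9, 38.1 and 40.0 CPM in control and at 27.7, 18.5 and 27.4 CPM in deficient mice (log2 fold change -0.69, SE 0.16, adjusted p = 0.0367, edgeR). All 4 had log2 fold changes below 0. Of 9 polymerase assembly factors 1 fell, Ruvbl2, an ATPase of the R2TP chaperone, at 149.8, 154.6 and 169.6 CPM against 122.1, 86.0 and 112.4 CPM (log2 fold change -0.57, SE 0.14, adjusted p = 0.0437, edgeR). The median over the assembly factors was -0.36, with 8 of 9 below 0. Of all genes in this comparison, 4.92% passed, 2.12% in the lower direction, and 47.3% had a log2 fold change below 0.

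None of the 7 Pol I initiation factors, 18 Pol II general transcription factors, 16 Pol III transcription factors or 7 mitochondrial transcription factors passed by genotype in LPS-IL-4. Their medians were -0.34, -0.19, -0.06 and -0.02, beside 0.02 over all genes, and at an unadjusted p under 0.05 there were 4, 5, 4 and 0 genes, beside 23.8% of all genes. All were lower in the deficient mice (11.7% of all genes) except the Pol II factor Gtf2a1, with a log2 fold change of 0.31. In LPS-BAFF-TGFb no gene of any of these lists passed, and the medians were -0.21, -0.15, -0.07 and -0.15, with -0.31 for the subunits under other symbols and -0.23 for the assembly factors.

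Between stimulations in control mice, Taf1a (Pol I initiation) and Gpn1 (assembly) fell by 0.45 and 0.40 on the log2 scale, and Gtf2a1, Mnat1 (both Pol II factors) and Gtf3c5 (Pol III factor TFIIIC) rose by 0.29, 0.41 and 0.52, where 18.2% of all genes passed. In Pdap1-deficient mice Gtf3c1 and Gtf3c5 of TFIIIC rose by 0.36 and 0.42 on the log2 scale, and Snapc4 fell by 0.42, where 13.6% of all genes passed. All other genes of these lists did not pass in either comparison.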

How the data were processed

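RNA-seq counts per Ensembl gene in 12 libraries were analysed. Per the sources, the authors trimmed reads, mapped them to GRCm38 with STAR and used HTSeq for counting, all run through PiGx RNA-seq; the submitters' processing notes name Trim Galore 0.6.1, STAR 2.6 and HTSeq 0.9.1. They deposited raw counts without normalization, used here, and a normalized table, not used. The annotation release and strand setting are not given in the sources used here. Symbols and exon lengths came from GENCODE M21.

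Each comparison was fitted on all genes that passed filterByExpr, with TMM scaling and the robust quasi-likelihood F test of edgeR 4.0.16 (R 4.3.3), and p-values were adjusted by Benjamini-Hochberg over all genes tested at a threshold of 0.05. Genotypes were fitted within the 6 libraries of a stimulation, and the interaction and the stimulations over the 12 libraries. DESeq2 1.42.0 was an alternative. Levels per library are CPM with 12-library TMM factors, and log2 levels used a prior count of 2.

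Genes described in full were those past the threshold in a comparison and, per role, the largest difference by genotype in LPS-IL-4; genes named otherwise are said to be so or are given by range. Of the 29 genes of the rule, 1 is not reported here. The members, lists and tests were chosen with earlier results of these data known. By the series design, both cultures of a mouse carry its number, and a fit with a block for the mouse was an alternative. Correlations of the deviations of same-numbered cultures were -0.18, 0.34 and -0.02 in control and 0.58, 0.62 and 0.29 in Pdap1-deficient mice. For differently numbered cultures they ran from -0.41 to 0.37 in control and from -0.58 to 0.01 in Pdap1-deficient mice. In control mice the same-numbered values thus lay within the range of the others. Within each group, no library was a copy of another, and libraries of different groups were not compared in that check. The steps were run on simulated data with imposed changes larger than those of the subunit genes called by genotype. Recovery of changes as small as those was therefore not tested. Python 3.11.15 was used for tables and figures.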

Additional observations from a re-analysis of the deposited data

How the results depend on the processing

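The number of subunit genes past the threshold by genotype in LPS-IL-4, 6, was 4 with all 12 libraries in 1 fit and from 1 to 9 when single mice were left out; it was 6 with DESeq2 size factors, a minimum of 10 counts, thinning and the length and GC offset, 7 with DESeq2 and 9 with no filter. In control mice, the number between stimulations, 3, was 1 with libraries thinned to the smallest total and between 0 and 7 with a mouse or the deepest library left out. In Pdap1-deficient mice it was between 0 and 1 with a mouse left out. By genotype in LPS-BAFF-TGFb and for the interaction it was 0 under all 15 alternatives each. In each comparison 1 of these was chosen after seeing the data, leaving out control mouse 1 and Pdap1-deficient mouse 2 of LPS-BAFF-TGFb. For the interaction, the LPS-IL-4 culture of that deficient mouse was left out as well. The median log2 fold change by genotype was between -0.35 and -0.21 in LPS-IL-4 and between -0.31 and -0.13 in LPS-BAFF-TGFb.

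With the replicate number as a block, the genotype counts were 6 and 0, and control and deficient mice of 1 number share only that number. With the mouse as a block, the counts were 4 between stimulations in control mice, 0 in Pdap1-deficient mice and 0 for the interaction, and the block changed no other call. Over all genes, calls by genotype in LPS-IL-4 were 741, against 1217 by DESeq2, 1694 with no filter, 450 with the length and GC offset and 69 to 1759 with a mouse left out. In LPS-BAFF-TGFb they were 65, against 172 by DESeq2, 257 with no filter, 99 with the offset, 133 with all 12 libraries in 1 fit, 19 to 116 with a mouse left out and 156 under the choice made after seeing the data. Between stimulations they were 2868 in control mice, down to 1532 with a mouse left out, and 2144 in Pdap1-deficient mice, down to 1049. With 3 mice per group, and as few as 4579793 counts in a library, the widest standard errors of a subunit's log2 fold change by genotype were 0.39 for Polr2a in LPS-IL-4 and 0.62 for Polr2l in LPS-BAFF-TGFb. Alternatives for single genes were run for part of the named subunit genes and comparisons. They were not run for genes outside the subunit set, so the calls of Cd3eap and Ruvbl2 were not checked in this way. No gene with such alternatives changed sign under any of them.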
